A study of Sus scrofa domesticus with 4 samples.

Results

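The respiratory chain genes described here encode subunits of mitochondrial complexes I to V, and they were chosen by symbol. Every gene on the array was taken whose symbol, reached through the RefSeq accession of its probe, starts with NDUF, SDHA to SDHD, UQCR, CYC1 or ATP5, or with COX followed by 4 to 8. This gave 27 genes with 99 probes, out of 3029 named genes and 43603 non-control probes. A RefSeq table of the pig genome holds 81 symbols of this form, and the other 54 had no probe named through a RefSeq accession and were not analysed here. The 27 genes are 6 with complex I (NDUF) symbols, 2 of complex II, 2 of complex III, 8 of complex IV, 8 of complex V and 1 complex I assembly factor, NDUFAF3.

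The tissue was myometrium, the muscular wall of the uterus, from crossbred gilts (Large White x Polish Landrace) aged 7 to 8 months and on days 15 to 16 of gestation. Explants were kept for 2 h of preincubation and then for 24 h with orexin A (OXA), a hypothalamic peptide, or without it. The sample labels give a dose of 10 nM and the series' design text gives 10 µM, and the values do not tell which was used. Each of 4 two-colour Agilent arrays carried RNA of OXA-treated tissue in one dye and of non-treated tissue in the other, with the dyes swapped: arrays 1 and 3 had OXA in Cy5, and arrays 2 and 4 had it in Cy3. The labels name 4 animals and 4 separate experiments but leave unsaid whether the RNA of both channels of an array came from 1 animal. The question asked of these arrays is how OXA changes gene expression in the myometrium of early pregnancy.

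The respiratory chain sits in the inner mitochondrial membrane. Complexes I and II take electrons from NADH and from succinate, complex III passes them to cytochrome c, and complex IV hands them to oxygen. Complexes I, III and IV pump protons across the membrane, and complex V, the ATP synthase, uses the returning protons to make ATP, which fuels the contraction of smooth muscle. Most subunits are encoded in the nucleus, as are all of those measured here, while a few central ones are encoded in mitochondrial DNA. Of the 13 mitochondrially encoded subunits, 0 were named through a RefSeq accession, and they were not analysed here.

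The arrays ran in different directions, which bears on every ratio below. A log2 ratio here is OXA over non-treated, with the dyes as the sample labels give them, and a positive value means more signal in the OXA channel. Across 19505 tested probes, which share arrays and are not independent, array 2 correlated with array 1 at r = -0.59 and with array 4, of the same dye orientation, at r = -0.38, while arrays 1 and 4 had r = 0.62. The labelling protocol's wording puts OXA in Cy5 throughout, so values under that reading and with array 2 turned are given where they change a statement. Named genes, each by its brightest probe, had median log2 ratios of 0.25, -0.22, 0.02 and 0.29 on arrays 1 to 4, although the medians over all tested probes lay between -0.05 and 0.01. Smooth muscle markers were present: 7 of 12 were named and all 7 were well above background, among them ACTA2, DES, CNN1 and MYL9. Their medians were -0.08, -0.17, 0.06 and -0.28 on arrays 1 to 4, with summed signals of 284686 to 645261 in the OXA channels and 277780 to 762349 in the non-treated ones. Markers of other cell types moved with the arrays. Macrophage markers (11 of 13 named, 10 tested, LYZ not) had medians of 0.62, -0.67, 1.57 and 0.73, with summed signals of 1734 to 11771 in the OXA channels and 1897 to 6863 in the non-treated ones. Uterine epithelial markers (6 of 11 named, 5 tested, CLDN4 not) had medians of -1.37, 2.06, -1.18 and 1.87, with summed signals of 138 to 12177 and 345 to 2873. On arrays 1 to 4, 1, 5, 0 and 5 of the 5 were positive, so the sign of their medians followed the dye orientation. With OXA in Cy5 throughout, arrays 2 and 4 change sign and the medians are negative on all 4 arrays. Endothelial markers (5 of 8 tested) had medians of -0.42, -0.35, 0.06 and 0.54, and fibroblast markers (4 of 7) had -0.11, -0.58, 0.23 and -0.46. Skeletal or cardiac muscle markers (6 of 8 named, 3 tested, MYH7, MYL2 and TNNC2 not) had -0.65, -0.28, 0.37 and 0.44. The 3 were ACTA1, ACTC1 and CKM. ACTA1 had -0.77, -0.08, 0.30 and -0.17, near the -0.58, -0.11, 0.40 and -0.13 of the smooth muscle marker ACTA2. Whether these 3 stand for another cell type was not tested. The part of all these markers in the values below was not tested. In tissue samples such as these, fewer cells of a type and less RNA per cell cannot be told apart.

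Respiratory chain transcripts did not differ between OXA-treated and non-treated tissue beyond the spread between arrays. limma called 0 of the 26 tested genes, against 0.0% of all tested probes and 0.0% of named genes at an adjusted p under 0.05, and the lowest adjusted p over all tested probes was 0.998. At an unadjusted p under 0.05, 0 of the 96 tested probes of these genes stood, against 1.2% of all tested probes and 1.31% of named genes, and the lowest unadjusted p among them was 0.137 (limma). The mean log2 ratios of the 26 genes ran only from -0.18 to 0.35. Their 95% intervals had a median half-width of 0.67, and the bounds reached from -0.90 to 1.04, so changes inside those bounds could not be told from 0 with 4 arrays. In 0 of 26 genes did the OXA and non-treated levels fail to overlap, against 0.655% of named genes, and in 0 of their 96 probes, against 0.62% of all tested probes.

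Most of the genes had positive means, and how many depended on the reading of the dyes. Of the 26 genes, 20 (76.9%) had a positive mean log2 ratio, against 61.2% of named genes. With array 2 turned, 22 (84.6%) had a positive limma estimate, against 70.9%, and with OXA in Cy5 throughout 15 (57.7%) had one, against 60.7%. Of their 96 probes, 57 (59.4%) had a positive mean, against 47.2% of all tested probes. On arrays 1 to 4, 20, 10, 17 and 22 of the 26 genes were positive, where named genes were positive in 66.6%, 33.4%, 52.7% and 68.4%. The median over the 26 genes was 0.29, -0.05, 0.13 and 0.48 on arrays 1 to 4, a mean of 0.21 ± 0.23 (SD, n = 4). Array 2 alone was negative, as it was for named genes in general. Set against the median of all named genes on the same array, the 26 genes by brightest probe differed by 0.04, 0.17, 0.11 and 0.19. The equal signs hold only under the sample labels' dyes. With OXA in Cy5 throughout the differences of arrays 2 and 4 are negative, and with array 2 turned that of array 2 is. These differences are descriptions with no test, since the members were chosen and are not replicates, and with 4 arrays a two-sided exact sign test cannot go below p = 0.125. The median SD between arrays was 0.34 for the 26 genes, against 0.52 for named genes. SDs under 0.52 also occurred outside the chain, as in the cycle enzyme IDH2 (0.26) and the antioxidant enzyme CAT (0.34). The regulators SIRT1 (0.54) and PRKAA2 (0.81) lay above it. Named genes were not matched to the 26 genes for signal level. Whether the share of positive means, the differences from the named-gene median or the lower spread is particular to the chain was therefore not tested.

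**Figure D1:**
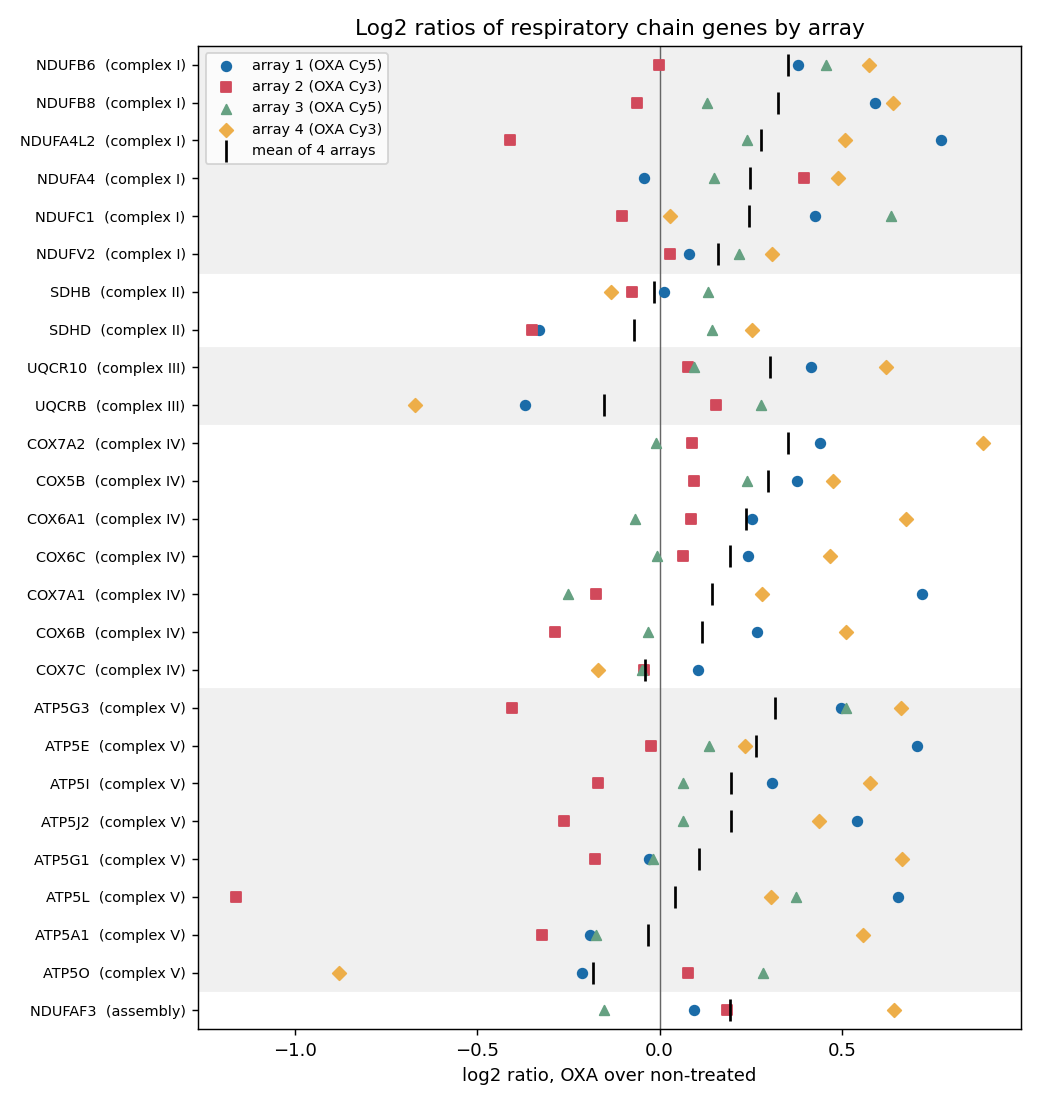
Log2 ratio, OXA over non-treated (horizontal axis), of the 26 tested respiratory chain genes by their brightest probe, ordered by complex and then by mean. Coloured symbols are the 4 arrays and the vertical tick is their mean. Values of array 2 lie lowest for most genes of complexes I and V, and ATP5O and UQCRB have their lowest values on array 4.

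Complex I is the entry point for electrons from NADH. All 6 of its NDUF genes had positive means, although NDUFA4 and its paralogue NDUFA4L2 are not taken as subunits of the complex itself. The median over the 6 genes was 0.40, -0.03, 0.23 and 0.50 on arrays 1 to 4, a mean of 0.27 ± 0.23 (SD, n = 4). Relative to the median of named genes this was 0.15, 0.19, 0.21 and 0.21, a narrow range that held for brightest probes only. The median over all 20 tested probes of these genes differed from the same named-gene median by -0.02, 0.18, 0.21 and -0.001. Reading all arrays with OXA in Cy5 gives a mean of 0.041.

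NDUFB6, an accessory subunit of the membrane arm, had log2 ratios of 0.38, -0.001, 0.46 and 0.58 on arrays 1 to 4. Arrays 1, 3 and 4 were positive and array 2 was at 0, with a mean of 0.35 ± 0.25 (SD, n = 4), or 1.28-fold, the highest mean of the 26 genes (limma adjusted p = 0.998). That rank changed with the reading. With array 2 turned, ATP5G3 had the highest limma estimate (0.57, NDUFB6 0.43). This estimate is not the plain mean, since array 4 then counts as much as the other arrays together. With OXA in Cy5 throughout, ATP5L had the highest mean (0.47, NDUFB6 0.066). Levels of NDUFB6 were 11.82 to 12.67 (log2 processed signal) in the OXA channels and 11.38 to 12.29 in the non-treated ones, which overlap. NDUFB8, another accessory subunit of that arm, had 0.59, -0.06, 0.13 and 0.64. It was high on arrays 1 and 4 and slightly negative on array 2, with a mean of 0.32 ± 0.35, and its 4 probes averaged 0.25 to 0.32. NDUFC1, a small membrane-arm subunit, had 0.43, -0.10, 0.63 and 0.03, so that array 3 was its highest and array 4 was near 0.

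NDUFV2 encodes an iron-sulphur subunit of the NADH-oxidising end and is the only core subunit of complex I among the measured genes. Its brightest probe had 0.08, 0.03, 0.22 and 0.31, positive on all 4 arrays with a mean of 0.16 ± 0.13 (SD, n = 4). The other 4 of its 5 probes did not share this: 2 were negative on arrays 1 and 2, and 2 on arrays 1, 2 and 4, and the 5 probes averaged -0.01 to 0.16. Array 3 was positive with all 5 probes, at 0.16 to 0.22.

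NDUFA4 carries a complex I name but is now taken as a subunit associated with complex IV. Its brightest probe had -0.04, 0.40, 0.15 and 0.49 on arrays 1 to 4. It was the 1 gene of the 26 with a negative value on array 1 and positive values on the other 3 arrays, a pattern found in 1.36% of named genes. Its 6 probes all had positive means, 0.09 to 0.28, yet they disagreed within arrays and spread from -0.19 to 0.51 on array 4. NDUFA4L2, its paralogue, which is known as a target of hypoxia-inducible factor, was measured by 1 of 2 probes. That probe was well above background on 3 arrays in the OXA channel and on all 4 in the non-treated channel, and had 0.77, -0.41, 0.24 and 0.51. The other probe was on no array well above background. NDUFAF3, the assembly factor, had 0.09, 0.18, -0.15 and 0.64 and was highest on array 4.

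Complex II, succinate dehydrogenase, links the tricarboxylic acid cycle to the chain and is encoded wholly in the nucleus. Neither of its 2 measured genes had a positive mean by the brightest probe, but their median turned from -0.043 to 0.063 with array 2 turned and to 0.033 with OXA in Cy5 throughout. SDHB, the iron-sulphur subunit, had 0.01, -0.08, 0.13 and -0.13, values that lie on both sides of 0 with a mean of -0.02 ± 0.12 (SD, n = 4). The brightest of its 7 probes differed from the other 6, which all had positive values on arrays 1, 3 and 4 and negative values on array 2. On array 2 the 7 probes spread from -0.54 to -0.08 and on array 4 from -0.13 to 0.67, and the mean over probes was 0.12. SDHD, a membrane anchor that binds haem and ubiquinone, had -0.33, -0.35, 0.14 and 0.25. All 5 of its probes were negative on arrays 1 and 2 and positive on arrays 3 and 4, and their means ran from -0.11 to -0.02. With array 2 turned, the limma estimate of SDHD was 0.15, in which array 4 counts as much as the other arrays together.

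Complex III is represented by 2 accessory subunits whose ratios ran in opposite directions on arrays 1 and 4. UQCR10 had 0.41, 0.08, 0.09 and 0.62, positive on all 4 arrays with a mean of 0.30 ± 0.26 (SD, n = 4), or 1.23-fold. UQCRB, known as the ubiquinone-binding protein, had -0.37, 0.16, 0.28 and -0.67, a mean of -0.15 ± 0.45. It was low on arrays 1 and 4, one of each dye orientation, and 6 of its 7 probes had this order of signs while the other was also slightly negative on array 2. UQCR10 was measured by 1 probe, so that its values have no second probe beside them.

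Complex IV, cytochrome c oxidase, has its catalytic subunits encoded in mitochondrial DNA, and the nuclear genes measured here encode the surrounding small subunits. Of 7 tested genes, 6 had positive means and all 7 were positive on array 1. The median over the 7 genes was 0.27, 0.06, -0.03 and 0.47 on arrays 1 to 4, a mean of 0.19 ± 0.22 (SD, n = 4). Array 3 stood lower here than in complex I, with 1 of 7 genes positive. Reading all arrays with OXA in Cy5 turns the mean to -0.076.

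COX5B, a subunit facing the matrix, had 0.38, 0.09, 0.24 and 0.47, positive on all 4 arrays. Its mean was 0.30 ± 0.17 (SD, n = 4), or 1.23-fold, with a 95% interval of -0.33 to 0.93 (limma adjusted p = 0.998). Means of its 3 probes ran from 0.29 to 0.48, and the dimmest was slightly negative on array 2 (-0.08). COX5B, NDUFV2 and UQCR10 were the 3 genes of 26 (11.5%) with positive values on all 4 arrays, against 5.79% of named genes, and 0 of 26 were negative on all 4, against 2.87%. These 3 genes hold that place only under the sample labels' dyes: with OXA in Cy5 throughout, SDHB alone (3.85%, against 5.34% of named genes) was positive on all 4, and with array 2 turned 9 other genes were (34.6%, against 23.8%). By probes, 8 of 96 (8.33%) were positive on all 4 arrays, against 3.96% of all tested probes, and 1, of ATP5A1, was negative on all 4, against 3.76%.

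The remaining subunits of complex IV include tissue isoforms. COX6A1, the isoform found in most tissues, had 0.25, 0.09, -0.07 and 0.68, and its 5 probes averaged 0.21 to 0.31. COX7A2, also the widespread isoform, had 0.44, 0.09, -0.01 and 0.89, a mean of 0.35 ± 0.41 (SD, n = 4). Both were highest on array 4 and near 0 on arrays 2 and 3. COX7A1, the isoform of heart and skeletal muscle, had 0.72, -0.18, -0.25 and 0.28, with array 1 the highest and array 3 the lowest. COX8H, the heart and muscle isoform of subunit VIII, was measured by 2 probes, neither of which was well above background with either RNA, and its ratio is left out.

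COX6B had 0.27, -0.29, -0.03 and 0.51, and a second probe of it reached -1.11 on array 2. COX6C had 0.24, 0.06, -0.01 and 0.47, and 2 of its 3 probes were positive on all 4 arrays. COX7C was the 1 tested gene of complex IV with a negative mean, at 0.11, -0.04, -0.05 and -0.17, a mean of -0.04 ± 0.11 (SD, n = 4) and the smallest spread of the 26 genes. Its 3 probes averaged -0.04 to 0.08, so its sign depends on the probe.

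**Figure D2:**
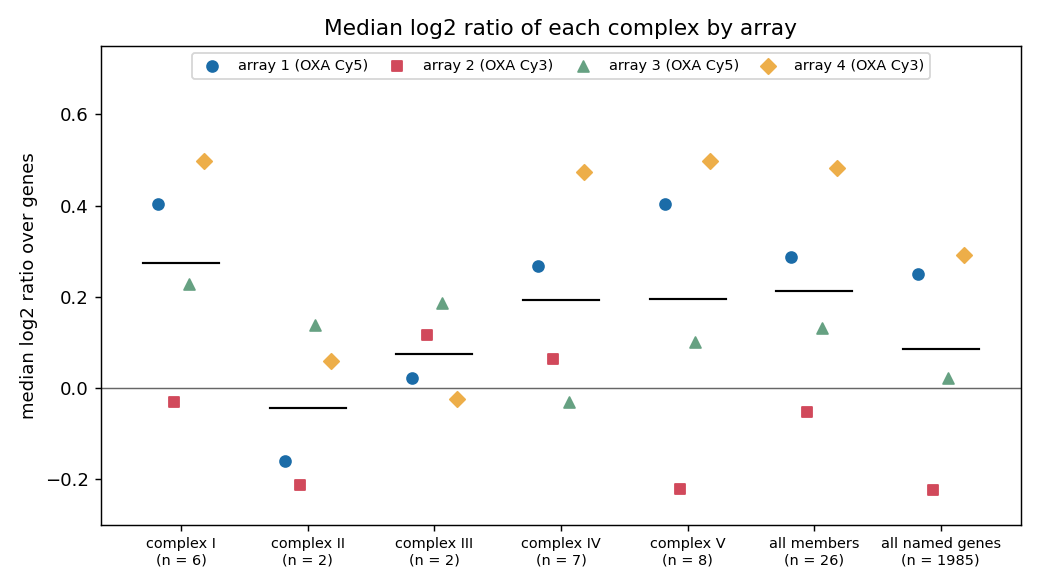
Median log2 ratio over genes (vertical axis) for each complex, for all 26 tested respiratory chain genes and for all 1985 tested named genes, with 1 symbol per array and a line at the mean of the 4 arrays. The symbols of named genes spread from -0.22 to 0.29, and complexes I and V spread over a similar or wider range in the same order of arrays 2, 3, 1 and 4.

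Complex V is the ATP synthase, with a catalytic head in the matrix, a rotating ring in the membrane, and stalks that join them. By brightest probes 6 of its 8 genes had positive means, with a median of 0.40, -0.22, 0.10 and 0.50 on arrays 1 to 4 and a mean of 0.19 ± 0.33 (SD, n = 4). That mean is 0.31 with array 2 turned and 0.056 with OXA in Cy5 throughout. By probes the picture is different, because the 2 genes with most probes lie lower: 24 of 33 probes of complex V had a negative mean. With the mean of each gene's probes in place of the brightest, the complex V median averages 0.07.

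ATP5A1 encodes the alpha subunit of the catalytic head. It had -0.19, -0.32, -0.17 and 0.56 on arrays 1 to 4, a mean of -0.03 ± 0.40 (SD, n = 4). Arrays 1, 2 and 3 were negative and array 4 alone was positive, and 12 of its 14 probes had this order of signs. The 14 probes averaged -0.30 to 0.10. With array 2 turned, the limma estimate of the brightest was 0.27, in which array 4 counts as much as the other arrays together. ATP5G1, which encodes a subunit of the rotating ring, shared the order with -0.03, -0.18, -0.02 and 0.66.

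ATP5O encodes the subunit that ties the head to the peripheral stalk. It had -0.21, 0.08, 0.28 and -0.88, a mean of -0.18 ± 0.51 (SD, n = 4), or 0.881-fold, the lowest mean of the 26 genes (limma adjusted p = 0.998). With array 2 turned it had the lowest limma estimate (-0.44), in which array 4 counts as much as the other arrays together, so it is not a plain mean. With OXA in Cy5 throughout ATP5O had 0.22 and NDUFAF3 was lowest (-0.22). Array 4 was the lowest with all 10 of its probes, between -0.88 and -0.41, array 1 was negative with all 10 and array 3 positive with all 10, while array 2 was positive with 5 and negative with 5. UQCRB of complex III had the same order of signs, and these 2 of 26 genes (7.69%) stand beside 6.90% of named genes with it.

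The remaining subunits of complex V, by brightest probe, were positive on arrays 1 and 4. ATP5G3, which encodes the same ring protein as ATP5G1 in its mature form, had 0.50, -0.41, 0.51 and 0.66, with array 2 apart from the others. ATP5E, the epsilon subunit of the central stalk, had 0.71, -0.02, 0.14 and 0.23 with its brighter probe, while its dimmer probe had the opposite signs on arrays 1, 2 and 4 (-0.60, 0.78 and -0.70). ATP5I had 0.31, -0.17, 0.06 and 0.58, and ATP5J2 had 0.54, -0.26, 0.06 and 0.44, both subunits of the membrane part. ATP5L, a further subunit of the membrane part, was measured by 1 probe and had 0.65, -1.16, 0.37 and 0.31, the widest spread of the 26 genes (SD 0.82, n = 4). Positive values on arrays 1, 3 and 4 with a negative value on array 2 were the most frequent order, in 9 of 26 genes (34.6%) against 23.8% of named genes. With array 2 turned these 9 genes are the ones positive on all 4 arrays, and with OXA in Cy5 throughout they are positive on arrays 1, 2 and 3 and negative on array 4.

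Different probes of a gene lay closer together on an array than the arrays lay to each other. In 8 of the 9 genes with 5 or more tested probes, the SD of the gene's mean between arrays was larger than the SD between its probes on an array. For UQCRB these were 0.42 and 0.10, for COX6A1 0.33 and 0.09, for ATP5O 0.40 and 0.11, and for SDHD 0.36 and 0.11. NDUFA4 was the exception with 0.07 between arrays and 0.17 between probes. Probe means had both signs in 5 of the 19 genes measured by several probes: ATP5A1, ATP5E, COX7C, NDUFV2 and SDHB.

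**Figure D3:**
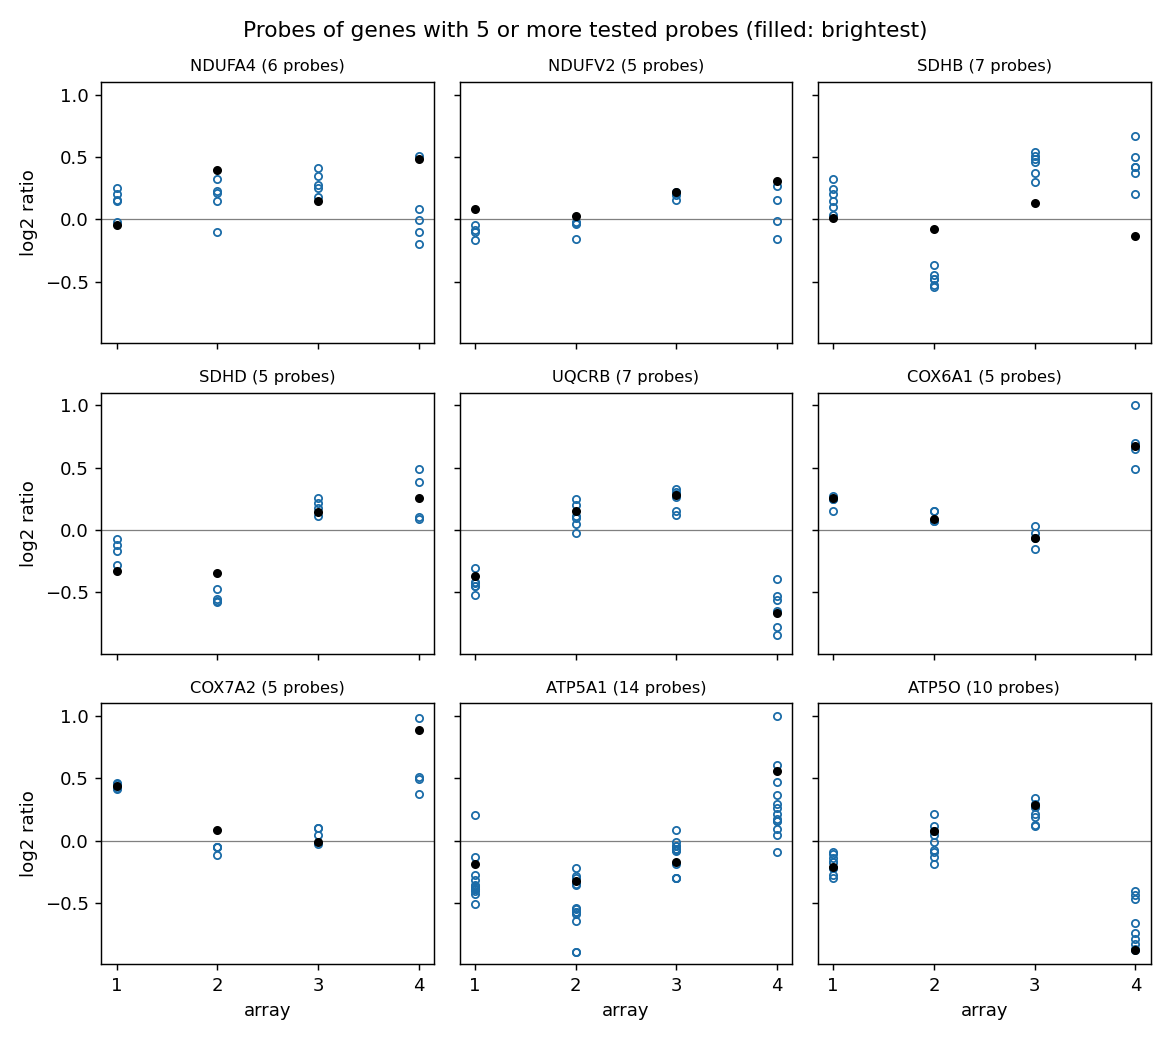
Log2 ratio (vertical axis) of every tested probe on arrays 1 to 4 for the 9 genes with 5 or more tested probes, the brightest probe filled. Probes of UQCRB, ATP5O, COX6A1 and SDHD stay close together on each array and shift together between arrays, while those of NDUFA4 overlap between arrays.

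**Figure D4:**
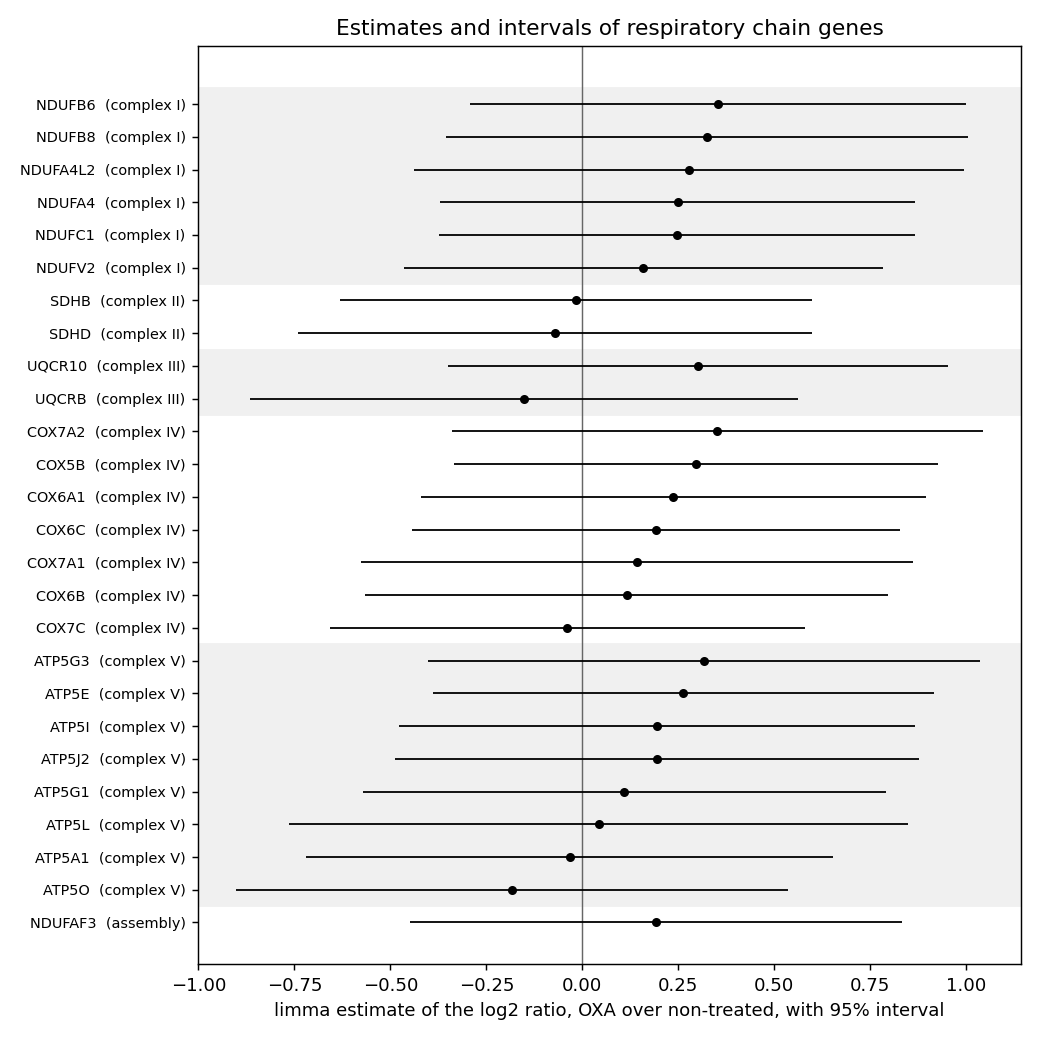
limma estimates of the log2 ratio, OXA over non-treated (horizontal axis), with 95% intervals for the 26 tested respiratory chain genes. Every interval includes 0, and the widest reach is from -0.90 (ATP5O) to 1.04 (COX7A2).

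The correlation between arrays differed by pair from that over all probes. Across the 96 tested probes of the 26 genes, which share arrays and in part transcripts, arrays 1 and 2 had r = -0.09, against -0.59 over all tested probes, and arrays 1 and 4 had r = 0.56, against 0.62. Arrays 1 and 3 had r = 0.27, against 0.23, and arrays 3 and 4 had r = -0.20, against -0.06. Arrays 2 and 3 had r = -0.06, against -0.30, and arrays 2 and 4 had r = -0.30, against -0.38. The probes count some genes many times. By 1 brightest probe per gene, over the 26 genes, arrays 1 and 2 had r = -0.34, arrays 1 and 4 0.45 and arrays 1 and 3 0.12. Arrays 3 and 4 had -0.26, arrays 2 and 3 -0.20 and arrays 2 and 4 -0.10. This is a description without a test. When array 2 was left out, limma called 1093 of all tested probes (5.6%) and 53 of 1985 named genes (2.67%), and 0 of the 26 respiratory chain genes or their 96 probes. Of these 96 probes, 0 had an unadjusted p under 0.05 in that fit, against 19.3% of all tested probes and 12.4% of named genes. Without array 1, 3 or 4 the calls over all probes were 1 (0.00513%), 5 (0.0256%) and 6 (0.0308%), with 0 of the 26 genes among them. A fit without 1 array takes its spread from the pair of arrays that still share a dye orientation. With array 2 turned, 1 of the 26 genes, ATP5G3, had an unadjusted p under 0.05 (3.85%, against 19.3% of named genes), as had 5 of 96 probes (5.21%, against 27.0% of all tested probes), and limma called 0.

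Genes around the chain were measured from lists of carriers, cycle enzymes and regulators, and limma called 0 in each list in either direction, and 0 had an unadjusted p under 0.05. Of 19 genes for electron carriers, nucleotide and phosphate exchange and uncoupling, 9 were tested, 5 with a positive and 4 with a negative mean, and the medians were 0.08, -0.27, -0.004 and 0.41 on arrays 1 to 4. CYCS, cytochrome c, had 0.44, -0.27, 0.23 and 0.41, the order of signs most frequent in the chain itself. ETFA, which passes electrons from fatty acid oxidation, had -0.79, 0.11, 0.03 and -0.88, the order of ATP5O and UQCRB. VDAC3, an outer membrane channel, had -0.27 ± 0.21 and SLC25A6, an ADP and ATP exchanger, had 0.27 ± 0.45 (SD, n = 4).

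Of 22 genes of the tricarboxylic acid cycle and pyruvate entry, 13 were tested, 7 with a positive and 6 with a negative mean. Their medians were -0.08, -0.17, 0.03 and 0.29, below those of the respiratory chain on every array under the sample labels' dyes. With OXA in Cy5 throughout they lie above the chain on arrays 2 and 4, and with array 2 turned on array 2. DLD, the shared dehydrogenase subunit of the 2-oxoacid complexes, had -1.46, 0.77, 0.16 and -1.67, positive on arrays 2 and 3. In the fit without array 2, its highest, limma called DLD at -1.16 (adjusted p = 0.0394), as it did 2.67% of named genes. In that fit array 4 counts as much as arrays 1 and 3 together. IDH2 had 0.22 ± 0.26, IDH3B 0.16 ± 0.26 and SUCLG1 -0.18 ± 0.44 (SD, n = 4).

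Among regulators of mitochondrial gene expression 4 of 22 were tested. TFAM, which packages and transcribes mitochondrial DNA, had -0.44, 0.29, 0.65 and -1.11. SIRT1 had -0.36 ± 0.54, PRKAA2 -0.23 ± 0.81 and TFB1M 0.01 ± 0.52 (SD, n = 4). Probes of PPARGC1A, SIRT3, PPARA and PPARD were named but did not pass the filter on dim probes. Of 8 antioxidant enzymes 6 were tested, 4 with a positive mean, among them GPX1 at 0.26 ± 0.50, TXNRD2 at 0.11 ± 0.31 and PRDX5 at 0.11 ± 0.35, while CAT had -0.12 ± 0.34 (SD, n = 4). Of 30 assembly genes only HIGD2A was tested, with 0.18 ± 0.24.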

How the data were processed

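The 4 arrays, from 1 slide, were each a replicate. Per the file headers the scanner files were written by Agilent Feature Extraction 10.7.3.1 and hold median and processed signal intensity and a LogRatio, log10 of Cy5 over Cy3, made by the scanner software before the authors deposited them. The processed intensity is background-subtracted and dye-normalized per the file headers, not scaled between arrays. Levels here are log2 of it. The deposited value table holds log2 ratios whose direction is not stated. It ran with the scanner's ratio on arrays 1 and 3 and against it on arrays 2 and 4, so as OXA over non-treated, and 99.86% or more of the tested probes differed from it by under 0.001. No further centring was found. Column medians over all non-control probes were 0.10, 0.10, -0.19 and 0.07, and centring on them was an alternative.

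Probes entered the test where the OXA or the non-treated channel was well above background on 3 or 4 arrays (19505 probes, 44.7%). Probes were named through RefSeq accessions, without versions, in a table of RefSeq genes (Sscrofa11.1) that served only for symbols (6700 probes, and 1985 tested genes). A gene's value is that of its brightest tested probe. limma 3.58.1 in R 4.3.3 was fitted to all tested probes with a term for OXA and a dye term (2 residual and 4.1 prior degrees of freedom), two-sided, with Benjamini-Hochberg adjustment and a threshold of 0.05. On simulated data for this comparison (19500 probes, independent noise with each probe's spread between arrays), 0% of probes changed 2-fold or 4-fold and 34.8% of those changed 8-fold were called. The small number of arrays limits the precision.

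The members, lists and rules were chosen with earlier results of these data known. The rule for named genes took up to 3 members per complex with the highest and lowest mean, those of 1 sign on all arrays, core subunits, tissue isoforms, members not above background, and up to 4 genes per other list with the smallest p. COX6C, ATP5G1 and ATP5J2 fall outside it and are given so that every member is accounted for. Alternatives were normexp (offset 50) or no background subtraction with loess, median centring, no filter, a filter on all arrays and both channels, no dye term, array 2 turned, OXA in Cy5 on all arrays, each array left out, and averaging all probes of a gene. Counting NDUFA4 and NDUFA4L2 with complex IV was added after seeing the data.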

Additional observations from a re-analysis of the deposited data

Results flagged for a closer look

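Dixon's ratio was computed for 48 sets of 1 value per array, those of single genes and of the complex medians, and it singled out 1 array in 3 of them, where chance alone would do so in about 5% of sets. For ATP5A1 that was array 4, at 0.558, with the remaining values between -0.32 and -0.17. For ATP5G3 it was array 2, at -0.405, with the remaining values between 0.50 and 0.66. For TFB1M, which encodes a mitochondrial ribosomal RNA methyltransferase, it was also array 2, at -0.765, with the remaining values between 0.21 and 0.36.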

How the results depend on the processing

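limma called 0 respiratory chain genes under every alternative that was fitted. Calls over all probes ran from 1 to 1093 when 1 array was left out (1093 without array 2), and DLD at -1.16 was among them. With 1 array left out, the complex medians averaged 0.20 to 0.38 (I), -0.10 to 0.01 (II), 0.04 to 0.11 (III), 0.10 to 0.27 (IV) and 0.09 to 0.33 (V). When all arrays were read with OXA in Cy5, the complex I median averaged 0.041 and the complex IV median -0.076, with 0.033 for II, 0.029 for III and 0.056 for V, and 13 of 26 genes changed sign: ATP5G1 -0.13, ATP5I -0.0097, ATP5O 0.22, COX6A1 -0.14, COX6C -0.074, COX7A2 -0.14, COX7C 0.067, NDUFA4 -0.19, NDUFAF3 -0.22, NDUFV2 -0.0096, SDHB 0.089, UQCR10 -0.048 and UQCRB 0.11. Of the other named genes, ETFA had 0.0015, VDAC3 0.025, IDH2 -0.086, IDH3B -0.0098, SIRT1 0.11, TFAM 0.26, GPX1 -0.30, CAT 0.21, TXNRD2 -0.11 and PRDX5 -0.10. With array 2 turned, the complex medians averaged 0.29, 0.063, 0.016, 0.16 and 0.31 (I to V), and ATP5A1 had 0.27, SDHD 0.15, SUCLG1 0.23, GPX1 -0.067 and CAT 0.059. With the mean of probes, COX7C had 0.026, SDHB 0.12 and CYCS -0.041. SDHB had 0.0028 after normexp and loess, and TFB1M -0.012 after median centring. The other settings changed no sign among the genes they tested. Leaving out 1 array changed the sign of the limma estimate of ATP5A1 (-0.25 to 0.19), ATP5G1 (-0.10 to 0.32), ATP5L (-0.32 to 0.41), ATP5O (-0.42 to 0.056), COX6B (-0.084 to 0.31), COX7A1 (-0.10 to 0.39), SDHB (-0.046 to 0.013), SDHD (-0.22 to 0.080) and UQCRB (-0.36 to 0.055). Outside the chain it did so for DLD (-1.16 to 0.060), PRDX5 (-0.087 to 0.30), PRKAA2 (-0.66 to 0.20), SUCLG1 (-0.44 to 0.080), TFAM (-0.51 to 0.19), TFB1M (-0.24 to 0.25) and TXNRD2 (-0.035 to 0.25). Counting NDUFA4 and NDUFA4L2 with complex IV, chosen after seeing the data, gave 0.29 for complex I and 0.20 for complex IV. The cause of these changes was not tested. Ratios within an array already pair OXA with non-treated RNA by array, so no separate replicate block was fitted.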
